A study of Homo sapiens with 12 samples.

Results

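The genes described here are 41 members of the ATF4 programme and of the unfolded protein response, chosen by name as enzymes of serine, asparagine and proline synthesis, tRNA synthetases, stress effectors, transcription factors, stress sensors, chaperones and disulfide isomerases of the endoplasmic reticulum (ER), and ER-associated degradation. All 41 symbols had rows in the deposited table of 29094 RefSeq accessions, of which 13424 rows passed the filter on low counts and were tested. For 37 members there was 1 accession row, and all 37 were tested. The other 4 members had several accession rows with few counts in all 12 libraries together, 374 for SHMT2, 94 for CRELD2, 31 for MTHFD2 and 0 for CEBPB. Their values are uncertain, and they enter no count below other than those of promoter windows.

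RNA was sequenced from MCF10AT, a human breast epithelial cell line transformed by an activated HRAS, which all groups share. The 4 groups of 3 libraries are the non-silencing shRNA controls NS1 and NS2, and EP300 KD1 and EP300 KD2, each carrying a different shRNA against EP300, the acetyltransferase p300 that serves as a transcriptional coactivator. All 4 populations were made with lentiviral particles and kept after puromycin, so that the controls carry a vector and the selection as well. Each hairpin has a corresponding control that the labels do not name, and the control with the same number was used. Neither the state of the populations as pools or clones nor the origin of the replicates in separate cultures is given, so p-values here reflect only how far these libraries vary, and that variation may be technical.

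As background, the unfolded protein response has sensors in the ER membrane. PERK (EIF2AK3) phosphorylates the initiation factor eIF2, which lowers general translation and favours translation of ATF4, a factor that other eIF2 kinases also induce when amino acids are scarce. IRE1 (ERN1) splices XBP1 mRNA, and ATF6 is cut to release a transcription factor. ATF4 raises genes of amino acid supply and stress effectors such as DDIT3 (CHOP), while XBP1 and ATF6 raise chaperones and degradation factors of the ER.

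Promoter sequences show where the DNA elements of these branches lie in members that the results turn on. RefSeq windows from GRCh38.p14, 300 bases long with 250 before and 50 after the start, were found for 37 of the 41 members and for 27305 symbols in all, and were searched on both strands for 4 motifs. These 37 include CRELD2 and are not the same 37 members as those tested. The ER stress response element (ERSE), CCAAT and CCACG spaced by 9 bases, was in 6 member windows (16.2%, against 0.0806% of all windows), those of HSPA5, HSP90B1, XBP1, CALR, CANX and CRELD2. The related ERSE-II, ATTGG and CCACG spaced by 1 base, was in those of HYOU1, HERPUD1 and SDF2L1 (8.11%, against 0.0549%). The core TGACGTGG of the unfolded protein response element was in those of ALDH18A1 and HYOU1 (5.41%, against 0.795%), and in HYOU1 it overlapped an ERSE-II. The C/EBP-ATF element TGATGNAAN, the type of site that ATF4 dimers bind, was in those of ASNS, CHAC1, AARS1 and HERPUD1 (10.8%, against 3.67%). ERSE and ERSE-II were defined on promoters of such chaperone genes, and the members were chosen by name as genes of these branches. The shares of all 4 motifs therefore describe the windows and are no test.

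Each sequence is printed 5′ to 3′ on the strand of its gene, upstream of the start, with matched letters in capitals, read on either strand, and with 20 bases on each side. ERSE matches are shown for HSPA5 (chr9:125241371-125241429, minus strand), HSP90B1 (chr12:103930196-103930359, plus strand) and XBP1 (chr22:28800583-28800641, minus strand). ERSE-II matches are shown for HYOU1 (chr11:119057254-119057410, minus strand) and, with a C/EBP-ATF element, for HERPUD1 (chr16:56931945-56932055, plus strand). C/EBP-ATF elements alone are shown for ASNS (chr7:97872448-97872496, minus strand), CHAC1 (chr15:40953241-40953289, plus strand) and AARS1 (chr16:70289666-70289714, minus strand).
HSPA5: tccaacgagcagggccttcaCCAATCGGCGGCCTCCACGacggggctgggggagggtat
HSP90B1: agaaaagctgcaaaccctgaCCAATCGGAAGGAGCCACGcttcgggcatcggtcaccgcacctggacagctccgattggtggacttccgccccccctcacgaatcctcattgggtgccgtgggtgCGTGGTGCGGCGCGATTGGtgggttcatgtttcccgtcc
XBP1: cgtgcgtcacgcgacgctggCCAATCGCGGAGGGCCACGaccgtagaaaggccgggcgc
HYOU1: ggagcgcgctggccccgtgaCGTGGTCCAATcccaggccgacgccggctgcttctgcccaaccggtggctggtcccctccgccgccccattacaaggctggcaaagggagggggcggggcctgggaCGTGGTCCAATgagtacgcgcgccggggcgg
HERPUD1: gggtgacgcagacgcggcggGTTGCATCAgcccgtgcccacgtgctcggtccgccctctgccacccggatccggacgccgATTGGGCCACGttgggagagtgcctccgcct
ASNS: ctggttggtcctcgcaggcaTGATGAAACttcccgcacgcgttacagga
CHAC1: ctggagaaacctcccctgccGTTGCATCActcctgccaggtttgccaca
AARS1: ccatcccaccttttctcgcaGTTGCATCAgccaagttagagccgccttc
The windows of HSPA5 and XBP1 each held 1 ERSE, and that of HSP90B1 held 2. A match is a description of the letters and was not tested for binding.

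Total counts per library ran from 31396653 to 45606950. EP300 mRNA fell from 172 ± 5.11 CPM (counts scaled to library size by TMM; mean ± SD, n = 3) in NS1 to 107 ± 0.884 in EP300 KD1, 62.4% of its control, and from 174 ± 8.14 in NS2 to 95.8 ± 3.87 in EP300 KD2, 55.0% of its control. The log2 changes were -0.68 ± 0.03 (± SE, as in all log2 changes below; edgeR adjusted p = 2.6e-12) and -0.86 ± 0.04 (adjusted p = 1.1e-13). In bulk RNA, fewer cells of a type and less RNA per cell cannot be told apart. Of 8 epithelial markers, 2 rose and 6 fell with the first hairpin and all 8 fell with the second. Their summed level ran from 5678 to 5801 CPM in NS1, 4539 to 4648 in EP300 KD1, 6734 to 6800 in NS2 and 3363 to 3443 in EP300 KD2, with KRT5 the highest of them and KRT14 near 1 CPM or below. Fibroblast markers (8, of which 4 were tested) summed to 46.5 to 48.4 CPM in NS1, 67.6 to 71.2 in EP300 KD1, 27.9 to 30.2 in NS2 and 25.9 to 28.4 in EP300 KD2, with COL1A2, COL3A1 and LUM at 0. Within this list COL1A1, DCN and PDGFRB rose and FBLN1 fell with the first hairpin, and COL1A1 and DCN rose and FBLN1 fell with the second (DCN to 5.92 and 2.37 times its control, FBLN1 to 0.258 and 0.377 times). Leukocyte markers (8, of which 3 were tested) summed to 52.3 to 63.4, 67.5 to 74.8, 65.9 to 67.5 and 38.1 to 40.3 CPM in the same order of groups, nearly all CD14 and CD68, with PTPRC at or near 0. With the first and second hairpin CD68 rose by 1.67 ± 0.07 and 0.37 ± 0.07 and CD14 changed by -0.65 ± 0.06 and -1.62 ± 0.07 on the log2 scale, in opposite directions. Markers of plasma cells (5, of which 2 were tested) summed to between 207 and 287 CPM, mostly SDC1, an epithelial gene as well, with TNFRSF17 at 0. Neural markers, which HEK293 packaging cells also carry (7, of which 1 was tested), summed to between 40.3 and 55.8 CPM in the controls and between 98.8 and 121 CPM in the EP300 shRNA libraries, nearly all TUBB3, with INA, STMN2 and ELAVL4 at 0. TUBB3 rose with both hairpins, SDC1 fell with both, and PRDM1 rose with the first and fell with the second. The part of these markers in the results below was not tested.

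With the first EP300 hairpin the members parted by function. Genes of amino acid synthesis, tRNA charging and the stress effectors fell in 11 of 13 tested, with a median log2 change of -0.31, while 15 of 17 genes of ER folding and degradation rose, with a median of 0.36, and none fell. With the second hairpin 12 of the 13 genes of synthesis and stress fell, with a median of -0.70, while the 17 ER genes gave 5 higher and 6 lower, with a median of -0.02. These 2 groups pool several roles and leave out the transcription factors and sensors. Members and lists were chosen with earlier results of these data known, so the split is a description and no test. Over all 37 members, 21 were higher and 13 lower in EP300 KD1 than in NS1, where 64.9% of all rows tested were called (32.6% higher, 32.3% lower). In EP300 KD2 against NS2, 7 members were higher and 22 lower, where 57.8% of all rows were called (27.9% higher, 29.9% lower). A call is an adjusted p from edgeR's quasi-likelihood test under 0.05.

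The members' median log2 change was 0.13 with the first hairpin and -0.19 with the second, against -0.01 and -0.00 over all rows tested. Their median absolute change was 0.34 and 0.26, against 0.24 and 0.20 over all rows. In EP300 KD1 the 3 libraries lay all above those of NS1 for 21 members and all below for 13, and overlapped for 3. In EP300 KD2 they lay all above those of NS2 for 7 and all below for 23, and overlapped for 7. The share of all rows tested that separate in this way was not computed. With 64.9% and 57.8% of all rows called, these counts are not read as particular to the members. Members carried 1.22 to 1.26% of all counts in NS1, 1.28 to 1.29% in EP300 KD1, 1.35 to 1.37% in NS2 and 1.17 to 1.19% in EP300 KD2. By library totals alone, in place of TMM, the rows called for the second hairpin were 4979 higher and 3144 lower, against 3744 and 4018 with TMM, and the members 10 higher and 22 lower.

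**Figure D1:**
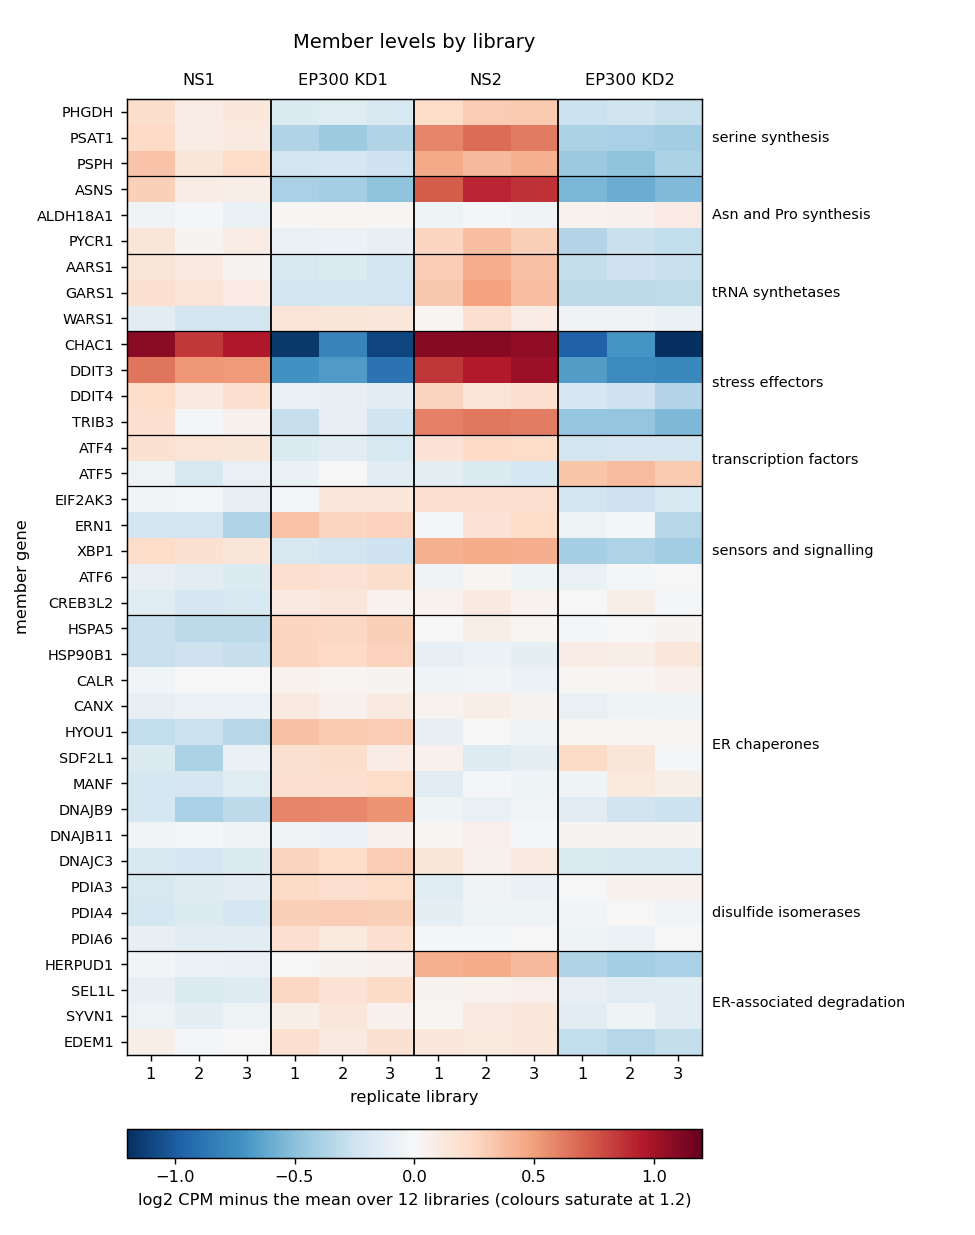
Level of the 37 tested members (rows, grouped by role) in the 12 libraries (columns, 3 per group), as log2 CPM minus the member's mean over all libraries. Red is above and blue below that mean; most genes of synthesis and stress are lower in both EP300 shRNA groups than in the controls, and most ER genes are highest in EP300 KD1.

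The 3 tested enzymes of serine synthesis fell with both hairpins. PSAT1 (chr9:78297125-78330093), the phosphoserine aminotransferase, stood at 437, 395 and 398 CPM in the NS1 libraries, 288, 276 and 289 in EP300 KD1, 557, 591 and 570 in NS2 and 285, 283 and 278 in EP300 KD2. Every EP300 shRNA library was below every control library, and NS2 was above NS1. The log2 changes were -0.53 ± 0.03 with the first hairpin (adjusted p = 9.2e-11) and -1.02 ± 0.03 with the second (adjusted p = 5.1e-15). PSPH (chr7:56011064-56051444), the phosphatase of the last step, stood at 55.6, 48.7 and 51.1 CPM in the NS1 libraries, 37.8, 38.3 and 37.1 in EP300 KD1, 60.2, 57.7 and 59.2 in NS2 and 32.3, 31.5 and 33.7 in EP300 KD2. Here too the groups of both comparisons did not overlap. PSPH changed by -0.46 ± 0.04 and -0.86 ± 0.04 (adjusted p = 1.9e-08 and 2.1e-12). PHGDH, which commits glycolytic carbon to serine, changed least of the 3, by -0.31 ± 0.03 and -0.54 ± 0.03 (adjusted p = 4.5e-08 and 1.9e-11).

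Asparagine synthetase, ASNS (chr7:97851677-97928441), whose promoter letters are printed above, gave one of the wider contrasts between hairpins. It stood at 128, 112 and 111 CPM in the NS1 libraries, 80.4, 79.4 and 75.4 in EP300 KD1, 174, 199 and 192 in NS2 and 71.8, 69.5 and 72.9 in EP300 KD2. The EP300 shRNA libraries were below all controls, and NS2 was above NS1 with no overlap. ASNS fell by 0.58 on the log2 scale with the first hairpin and by 1.40 with the second (SE 0.05 and 0.05, adjusted p = 1.2e-08 and 2.1e-14). The knockdown groups were closer to each other, at -0.13 ± 0.05 for EP300 KD2 against EP300 KD1, than the controls, at 0.69 ± 0.05 for NS2 against NS1. Of the proline enzymes, PYCR1, which makes proline from pyrroline carboxylate, changed by -0.17 ± 0.04 and -0.61 ± 0.04 (adjusted p = 0.00048 and 5.9e-11). ALDH18A1, which makes the precursor of proline, rose slightly with both, by 0.07 ± 0.02 and 0.10 ± 0.02 (adjusted p = 0.026 and 0.0022). The first of these calls was lost without NS1 replicate 1 (0.06) or 3 (0.05) and without EP300 KD1 replicate 1 or 3 (0.07 each).

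Among the tRNA synthetases, which load amino acids onto tRNA, AARS1 for alanine and GARS1 for glycine fell with both hairpins. GARS1 (chr7:30594735-30634033) stood at 442, 432 and 415 CPM in the NS1 libraries, 329, 331 and 330 in EP300 KD1, 483, 541 and 496 in NS2 and 311, 312 and 313 in EP300 KD2. In both comparisons its knockdown libraries were all below their controls, with log2 changes of -0.38 ± 0.03 and -0.70 ± 0.03 (adjusted p = 7.9e-09 and 1.1e-12). AARS1 (chr16:70252298-70289506) stood at 328, 319 and 302 CPM in the NS1 libraries, 259, 265 and 255 in EP300 KD1, 363, 401 and 378 in NS2 and 243, 250 and 246 in EP300 KD2. It was likewise lower in all 3 libraries of each hairpin, by -0.29 ± 0.03 and -0.63 ± 0.03 (adjusted p = 5.4e-07 and 7.6e-12). WARS1, the tryptophan enzyme, which interferon gamma also induces, rose with the first hairpin by 0.34 ± 0.04 and fell with the second by 0.16 (adjusted p = 7.1e-08 and 0.00079).

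All 4 stress effectors fell with both hairpins, and CHAC1 and DDIT3 changed more than any other member tested. CHAC1 (chr15:40953471-40956512), an enzyme that degrades glutathione and a target of ATF4, stood at 43.2, 36.9 and 39.7 CPM in the NS1 libraries, 9.15, 11.7 and 9.52 in EP300 KD1, 43.5, 43.5 and 42.6 in NS2 and 10.4, 12.5 and 7.81 in EP300 KD2. Both hairpins left all their libraries far below both controls. The log2 changes were -1.98 ± 0.10 and -2.07 ± 0.10 (adjusted p = 2.3e-12 and 1.2e-12). DDIT3 (chr12:57516588-57520517), the transcription factor CHOP, which promotes cell death under prolonged stress, stood at 22.9, 21.0 and 20.9 CPM in the NS1 libraries, 8.86, 9.12 and 7.90 in EP300 KD1, 26.5, 28.3 and 29.8 in NS2 and 9.18, 8.63 and 8.55 in EP300 KD2. Again no knockdown library reached a control library, with log2 changes of -1.32 ± 0.07 and -1.68 ± 0.06 (adjusted p = 1.6e-12 and 3.7e-14). TRIB3 (chr20:380760-397559), a pseudokinase that ATF4 and CHOP induce, stood at 242, 207 and 218 CPM in the NS1 libraries, 174, 197 and 179 in EP300 KD1, 320, 326 and 323 in NS2 and 153, 153 and 145 in EP300 KD2. Its 3 libraries of each hairpin were below those of the same-numbered control, by -0.28 ± 0.05 and -1.11 ± 0.05 on the log2 scale (adjusted p = 3.8e-05 and 2e-13). DDIT4, an inhibitor of mTORC1 that other stresses induce as well, changed by -0.28 ± 0.03 and -0.47 ± 0.03 (adjusted p = 8.9e-07 and 7.8e-10).

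**Figure D2:**
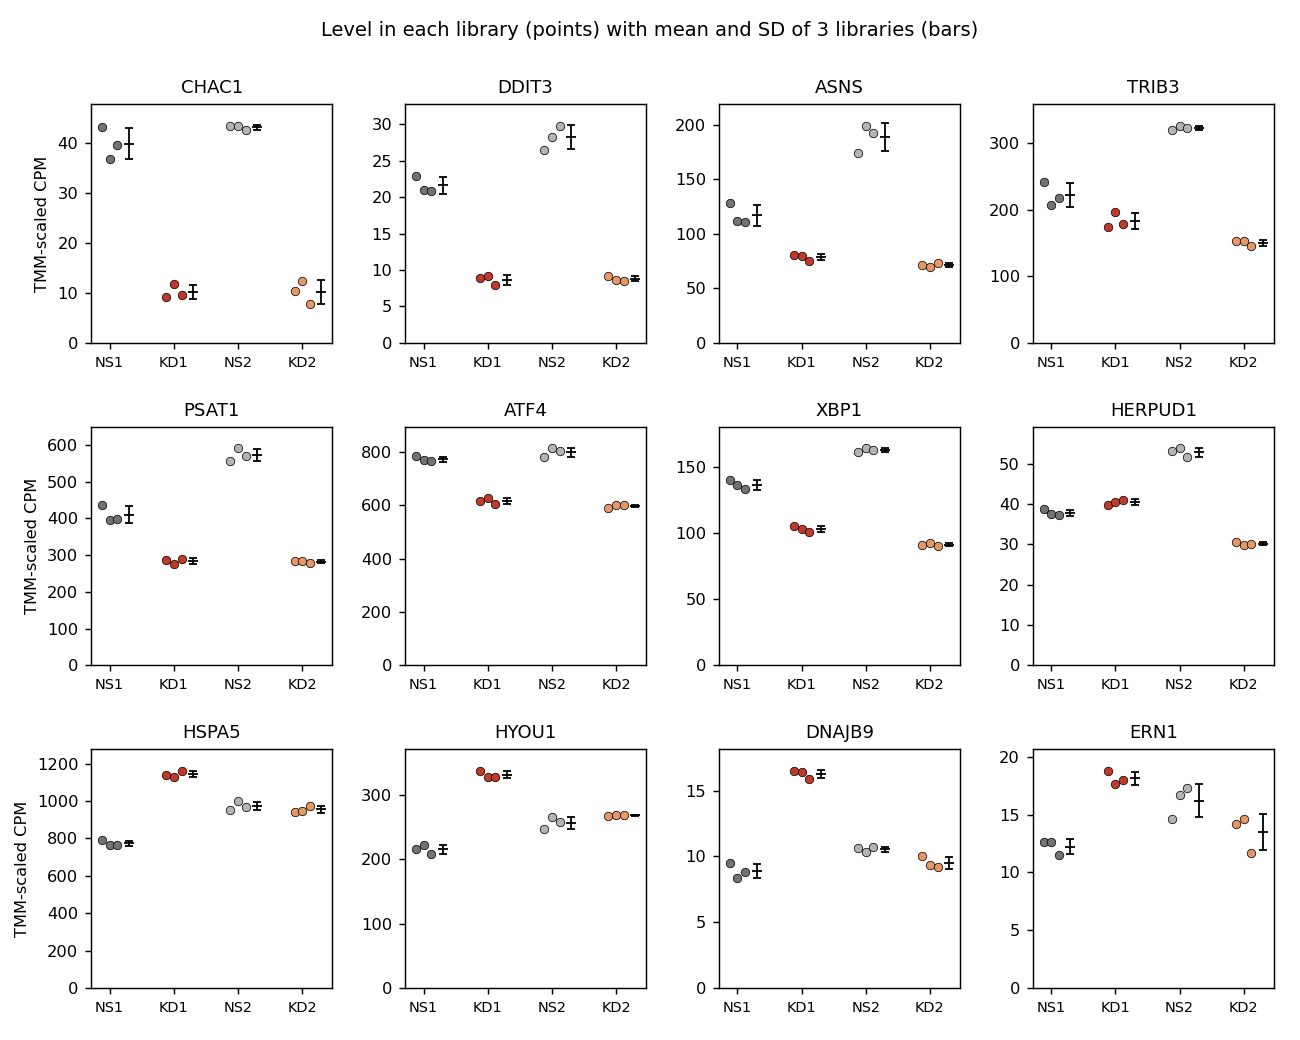
TMM-scaled CPM (vertical axes from 0) of 12 members in each library (points), with the mean and SD of 3 libraries beside them. CHAC1 and DDIT3 are below their controls in all 6 EP300 shRNA libraries, while HSPA5, HYOU1 and DNAJB9 are highest in EP300 KD1.

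Of the transcription factors, ATF4 itself fell modestly. ATF4 (chr22:39520559-39522686), whose protein is set largely by translation, stood at 783, 770 and 765 CPM in the NS1 libraries, 616, 628 and 604 in EP300 KD1, 779, 813 and 801 in NS2 and 591, 599 and 599 in EP300 KD2. The control libraries were all above the knockdown libraries. Its mRNA changed by -0.33 ± 0.02 and -0.42 ± 0.02 (adjusted p = 1.7e-10 and 5e-12). ATF5 (chr19:49928906-49933935), a related factor that eIF2 phosphorylation also favours, stood at 44.8, 41 and 44.1 CPM in the NS1 libraries, 44.4, 47.0 and 43.0 in EP300 KD1, 43.4, 41.7 and 40.6 in NS2 and 58.9, 61.0 and 58.3 in EP300 KD2. It rose with the second hairpin alone of the 2 tests, by 0.50 ± 0.04 (adjusted p = 2.6e-09), against 0.05 ± 0.04 with the first (adjusted p = 0.32). The protein level, eIF2 phosphorylation and XBP1 splicing were not measured.

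Among the 5 sensors and their signalling factors, 4 rose with the first hairpin, 3 fell with the second, and XBP1 fell with both. EIF2AK3 (chr2:88556741-88628145), which encodes PERK, stood at 23.4, 23.5 and 22.3 CPM in the NS1 libraries, 23.5, 26.0 and 26.0 in EP300 KD1, 27.4, 27.3 and 27.4 in NS2 and 20.4, 20.1 and 21.0 in EP300 KD2. The EP300 KD1 libraries overlapped those of NS1, and all 3 of EP300 KD2 were below all others. The changes were 0.13 ± 0.04 and -0.42 ± 0.04 (adjusted p = 0.016 and 1.4e-07). ERN1 (chr17:64039142-64130144), which encodes IRE1, stood at 12.6, 12.6 and 11.5 CPM in the NS1 libraries, 18.8, 17.7 and 18.0 in EP300 KD1, 14.6, 16.7 and 17.3 in NS2 and 14.2, 14.6 and 11.7 in EP300 KD2. EP300 KD1 was above NS1, and the highest EP300 KD2 library came close to the lowest of NS2. The changes were 0.58 ± 0.08 and -0.26 ± 0.08 (adjusted p = 2.7e-06 and 0.0075). The rise of EIF2AK3 was not called without NS1 replicate 3, EP300 KD1 replicate 2 or EP300 KD1 replicate 3 (0.10 each). By DESeq2 that rise was not called either (0.12, adjusted p = 0.07). The fall of ERN1 was not called without NS2 replicate 3 (-0.21) or EP300 KD2 replicate 3 (-0.17).

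XBP1 (chr22:28794560-28800569), the factor whose mRNA IRE1 splices, stood at 140, 136 and 133 CPM in the NS1 libraries, 105, 103 and 101 in EP300 KD1, 161, 164 and 163 in NS2 and 91.2, 92.8 and 89.9 in EP300 KD2. It was lower in every library of each hairpin, by -0.40 ± 0.03 and -0.83 ± 0.03 (adjusted p = 7.8e-11 and 1.8e-15). ATF6 (chr1:161766320-161964070) stood at 83.0, 81.1 and 79.3 CPM in the NS1 libraries, 102, 100 and 103 in EP300 KD1, 86.4, 90.3 and 85.7 in NS2 and 84.2, 87.3 and 89.0 in EP300 KD2. EP300 KD1 was above the other groups, with a change of 0.33 ± 0.03 (adjusted p = 1.5e-08), and the second hairpin gave -0.01 ± 0.03 (adjusted p = 0.77). CREB3L2 (chr7:137874979-138002086), an ER-membrane factor that, like ATF6, is released by proteolysis, stood at 91.4, 87.9 and 89.2 CPM in the NS1 libraries, 109, 111 and 104 in EP300 KD1, 104, 109 and 104 in NS2 and 101, 106 and 99.3 in EP300 KD2. It rose with the first hairpin by 0.27 ± 0.03 (adjusted p = 7.4e-07) and gave -0.04 ± 0.03 with the second (adjusted p = 0.27).

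The ER chaperones rose with the first hairpin in 8 of 10 tested, and none fell. With the second, 4 rose, 2 fell and 4 did not pass the test. DNAJB9 (chr7:108569874-108574850), a J-protein partner of BiP that restrains IRE1, stood at 9.48, 8.39 and 8.85 CPM in the NS1 libraries, 16.5, 16.4 and 15.9 in EP300 KD1, 10.6, 10.3 and 10.7 in NS2 and 10.0, 9.31 and 9.20 in EP300 KD2. Its EP300 KD1 libraries were above all others, at 0.87 ± 0.06 (adjusted p = 4.3e-10), and the second hairpin gave -0.14 ± 0.06 (adjusted p = 0.064), or -0.18 and called without EP300 KD2 replicate 1. HYOU1 (chr11:119044188-119057205), a large chaperone that exchanges the nucleotide of BiP, stood at 216, 222 and 209 CPM in the NS1 libraries, 338, 329 and 328 in EP300 KD1, 247, 266 and 258 in NS2 and 268, 269 and 269 in EP300 KD2. It rose with the first hairpin by 0.62 ± 0.03 (adjusted p = 4e-13), and gave 0.06 ± 0.03 with the second (adjusted p = 0.068). Without NS1 replicate 2 or 3 (0.07 each) or NS2 replicate 2 (0.10), the latter change of HYOU1 was called. This change was also called by DESeq2 (0.08), upper-quartile scaling (0.11), library totals alone (0.13) and with no filter on low counts (0.11). The same held with at least 1 CPM in at least 3 libraries (0.07) and with only the 2 groups compared (0.07). A limma-voom fit and a replicate block did not call it.

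HSPA5, which encodes BiP, the main chaperone of the ER, had means of 772 ± 15.1 CPM in NS1, 1143 ± 15.7 in EP300 KD1, 973 ± 22.6 in NS2 and 954 ± 18.2 in EP300 KD2 (SD, n = 3). It rose by 0.57 ± 0.02 with the first hairpin (adjusted p = 8.6e-14) and gave -0.03 ± 0.02 with the second (adjusted p = 0.32). HSP90B1, which encodes GRP94, rose with both, by 0.52 ± 0.02 and 0.20 ± 0.02 (adjusted p = 5.6e-14 and 1.4e-07). SDF2L1, a cofactor of BiP, and MANF, a secreted ER stress protein, also rose with both, by 0.36 and 0.20 and by 0.39 and 0.11. With the second hairpin their libraries overlapped those of NS2. There the call of SDF2L1 was lost without NS1 replicate 1, EP300 KD1 replicate 1, NS2 replicate 2 or 3, or EP300 KD2 replicate 1 or 2 (0.14 to 0.20), and that of MANF without NS2 replicate 1 or EP300 KD2 replicate 2 or 3 (0.08 to 0.10). DNAJC3, a J-protein that inhibits eIF2 kinases, rose by 0.45 ± 0.03 and fell by 0.28, and the lectin chaperone CANX rose by 0.17 ± 0.02 and fell by 0.12. The lectin chaperone CALR gave 0.05 ± 0.02 with the first hairpin (adjusted p = 0.064; 0.06 and called without NS1 replicate 2) and rose by 0.07 ± 0.02 with the second (adjusted p = 0.0052). DNAJB11, another partner of BiP, passed neither test (0.01 in both).

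The 3 disulfide isomerases, which form and rearrange disulfide bonds, rose with the first hairpin. PDIA4 changed by 0.48 ± 0.02, PDIA3 by 0.37 ± 0.03 and PDIA6 by 0.30 ± 0.03 (adjusted p = 6.4e-13, 2.1e-10 and 9.1e-09). With the second hairpin PDIA3 rose by 0.12 ± 0.03 (adjusted p = 0.00036), while PDIA4 gave 0.05 ± 0.02 and PDIA6 -0.02 ± 0.03 (adjusted p = 0.067 and 0.57). Without NS1 replicate 2 or 3 or NS2 replicate 2, the value of PDIA4 was 0.06 and was called. This rise was also called by DESeq2 (0.06), upper-quartile scaling (0.10), library totals alone (0.12) and with no filter on low counts (0.10). The same held with at least 1 CPM in at least 3 libraries (0.06) and with a replicate block (0.05). A limma-voom fit and the fit of only the 2 groups compared did not call it.

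All 4 genes of ER-associated degradation rose with the first hairpin and fell with the second. HERPUD1 (chr16:56932142-56944864), a scaffold of the degradation complex with both an ERSE-II and a C/EBP-ATF element in its window, stood at 38.7, 37.6 and 37.3 CPM in the NS1 libraries, 39.7, 40.5 and 41.1 in EP300 KD1, 53.1, 53.8 and 51.6 in NS2 and 30.7, 29.8 and 30.1 in EP300 KD2. EP300 KD2 was below every other group and NS2 above every other. HERPUD1 changed by 0.10 ± 0.03 and -0.81 ± 0.03 (adjusted p = 0.015 and 1.1e-13), and the first of these calls was lost without NS1 replicate 3 (0.09) or EP300 KD1 replicate 3 (0.08). By DESeq2 the rise of HERPUD1 was not called either (0.09, adjusted p = 0.083). SEL1L, the adaptor of the ubiquitin ligase, changed by 0.36 ± 0.03 and -0.16 ± 0.03 (adjusted p = 1.4e-09 and 8.6e-05). SYVN1, the ligase HRD1 itself, changed by 0.16 ± 0.03 and -0.19 ± 0.04 (adjusted p = 0.00051 and 0.00011). EDEM1, a mannosidase-like protein that marks glycoproteins for degradation, changed by 0.14 ± 0.03 and -0.43 ± 0.03 (adjusted p = 0.00038 and 2.6e-10).

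The comparisons of the 2 hairpins with their own controls share no library. Among the 37 members, 13 were lower with both (35.1%, against 17.3% of all rows tested), and these were PHGDH, PSAT1, PSPH, ASNS, PYCR1, AARS1, GARS1, CHAC1, DDIT3, DDIT4, TRIB3, ATF4 and XBP1. Another 5 were higher with both (13.5%, against 15.3%), namely HSP90B1, SDF2L1, MANF, PDIA3 and ALDH18A1. For 9 members the level was higher with the first hairpin and lower with the second (24.3%; 11.2% of all rows were called in opposite directions), namely EIF2AK3, ERN1, CANX, DNAJC3, HERPUD1, SEL1L, SYVN1, EDEM1 and WARS1. Against both controls pooled, 5 of these 9 were still higher with the first and lower with the second, CANX, DNAJC3, SEL1L, SYVN1 and EDEM1. Members higher with both were then 10, with the same 5 among them, and members lower with both were 14, with the same 13 among them. The pooled contrasts share their control libraries, and the matching shares of all rows were not computed. No member fell with the first and rose with the second. Another 9 were called with 1 hairpin and DNAJB11 with neither. Across members, which are not independent replicates, Pearson's r between the log2 changes was 0.86, against 0.70 across all rows. The rows tested were not matched to the members for level, here or in the shares above.

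**Figure D3:**
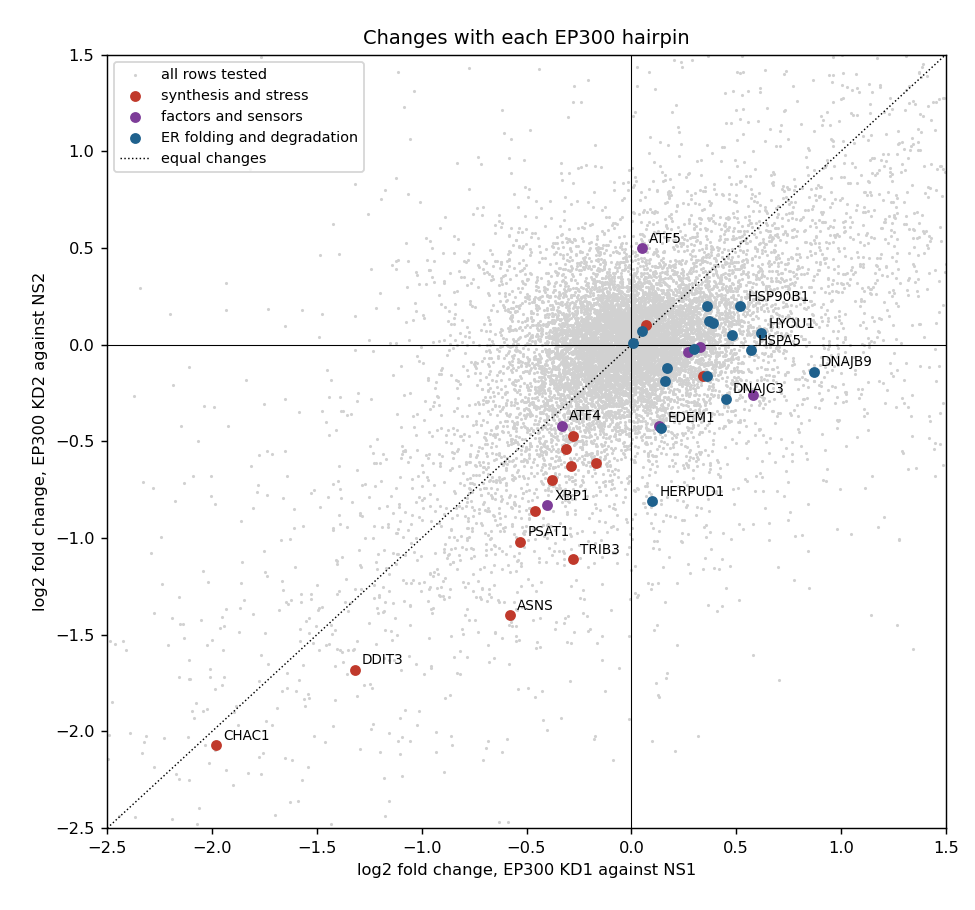
Log2 fold change of each member with the first hairpin (horizontal axis) and the second (vertical axis), coloured by function, over all rows tested in grey (rows beyond the axes are not drawn). Most genes of synthesis and stress lie in the lower left, and 31 of 37 members were called lower in the difference, below the dotted line of equal changes.

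The difference between the hairpins was tested directly as the effect of the second minus that of the first. It was lower for 31 members, higher for ATF5 and not called for 5, with a median of -0.35 against -0.03 over all rows. Of all rows, 50.8% were called in this contrast, 21.6% higher and 29.2% lower. The members furthest apart were DNAJB9 (-1.01 ± 0.09, adjusted p = 2.2e-08), HERPUD1 (-0.90 ± 0.05, adjusted p = 1.2e-11), ERN1 (-0.84 ± 0.11, adjusted p = 3.7e-06), TRIB3 (-0.83 ± 0.07, adjusted p = 5.7e-09) and ASNS (-0.82 ± 0.07, adjusted p = 2.4e-08). For CHAC1 the difference was -0.09 ± 0.15 (adjusted p = 0.65). That of ATF4, -0.09 ± 0.03 (adjusted p = 0.019), was not called without NS1 replicate 3 (-0.08) or NS2 replicate 2 (-0.07), nor by library totals alone (-0.02). By library totals alone, rows were 3780 higher and 3117 lower, against 2903 and 3915, and members 3 higher and 29 lower.

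The 2 controls, which carry no EP300 hairpin, also differed in these genes. Of the 37 members, 29 were higher in NS2 than in NS1 and none was lower, where 27.5% of all rows tested were called (14.2% higher, 13.4% lower). The members' median log2 difference was 0.19, against -0.00 over all rows. It was 0.69 ± 0.05 for ASNS, 0.54 ± 0.05 for TRIB3, 0.48 ± 0.03 for PSAT1, 0.48 ± 0.03 for HERPUD1 and 0.42 ± 0.08 for ERN1. The 8 members that did not pass the test were ALDH18A1, CHAC1, DDIT4, ATF4, ATF5, CALR, SDF2L1 and DNAJB11. The calls of PDIA3 and MANF were each lost without several single libraries of the controls (0.05 to 0.11), and that of ATF6 without NS1 replicate 3 (0.09) or NS2 replicate 2 (0.08). By role, all 5 sensors and all 4 degradation genes were higher in NS2, as were 10 of 13 genes of synthesis and stress and 14 of 17 ER genes. This comparison shares its libraries with those of the hairpins. By construction, a higher level in NS2 lowers the second hairpin's change, and a lower level in NS1 raises that of the first.

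**Figure D4:**
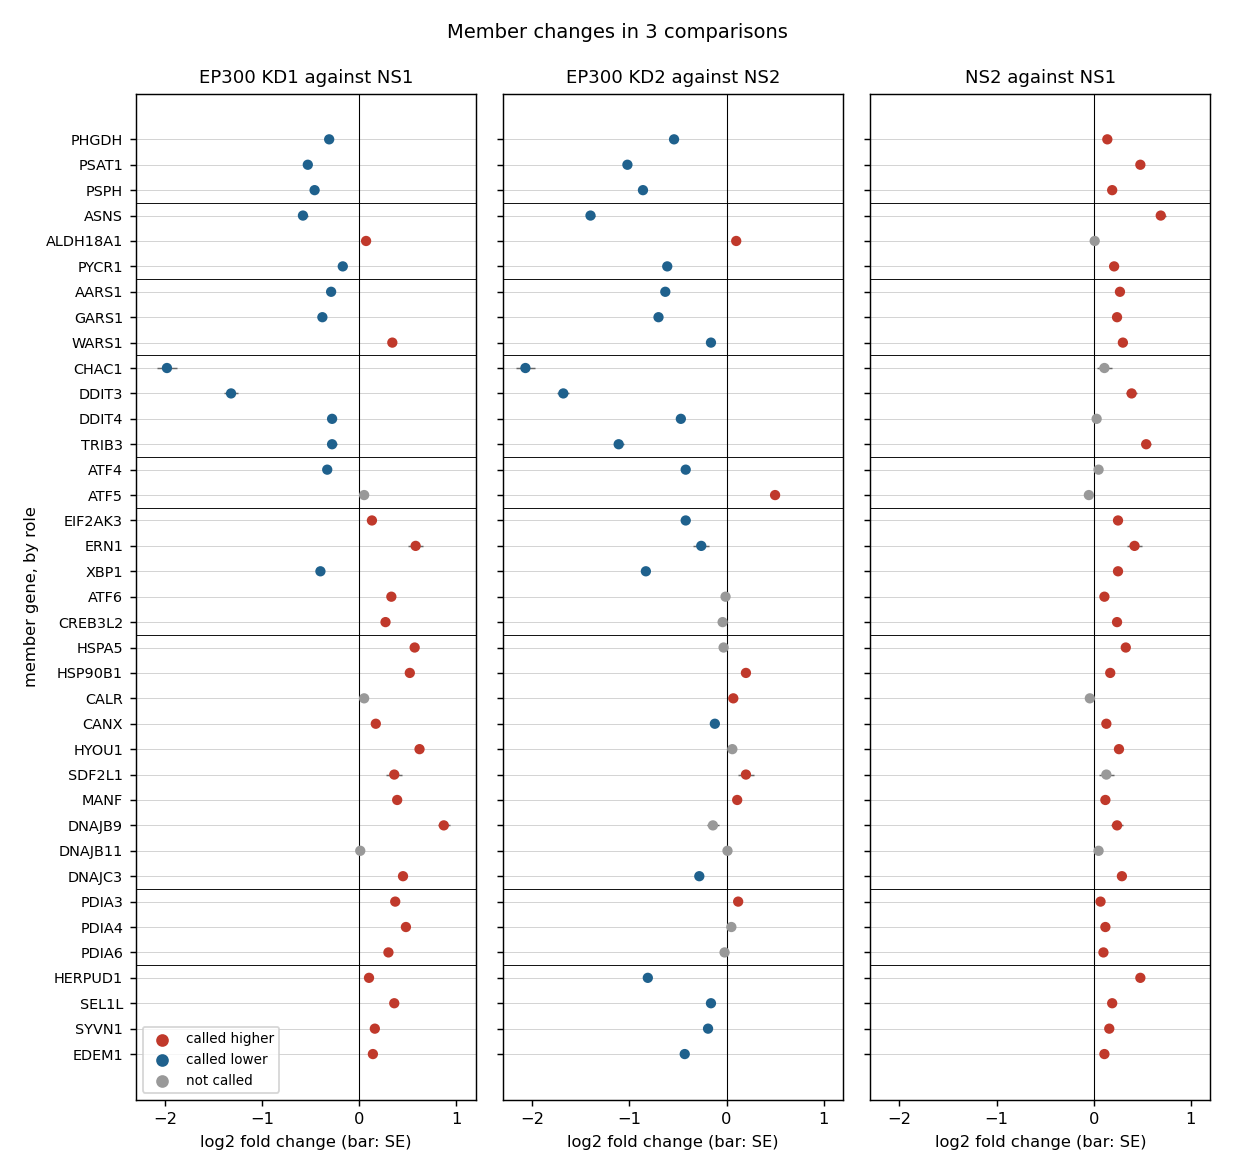
Log2 fold change (points) with its SE (bars) for each member in 3 comparisons; red points were called higher, blue lower and grey not called. With the first hairpin 21 members were higher and 13 lower, with the second 7 and 22, and in NS2 against NS1 29 were higher.

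Each hairpin was therefore also set against both controls pooled, 2 contrasts that share their controls. There, the 13 genes of synthesis and stress gave 2 higher and 11 lower with the first hairpin (median -0.50) and 1 higher and 11 lower with the second (median -0.58). CHAC1 changed by -2.03 and -2.01, DDIT3 by -1.52 and -1.49, and PSAT1 by -0.77 and -0.78. The 17 ER genes gave 15 higher and 1 lower with the first hairpin (median 0.29) and 8 higher and 6 lower with the second (median 0.04). Over all members the counts were 20 higher and 14 lower with the first hairpin, where 67.3% of all rows were called (33.4% higher, 33.9% lower), and 11 and 20 with the second, where 63.0% were called (30.8% higher, 32.2% lower). In this contrast HERPUD1 fell with the first hairpin (-0.14, adjusted p = 0.00018), and with the second HSPA5 rose (0.14, adjusted p = 5.9e-06) and CREB3L2 rose (0.07, adjusted p = 0.027). The calls of EIF2AK3 with the first hairpin (0.00, adjusted p = 0.93) and of ERN1 (-0.05, adjusted p = 0.51) and WARS1 (-0.01, adjusted p = 0.88) with the second were lost. HYOU1 (0.19, adjusted p = 1.3e-06) and PDIA4 (0.11, adjusted p = 7e-05) rose with the second hairpin in this contrast, and CALR rose with the first (0.06, adjusted p = 0.0045).

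With no control involved, EP300 KD2 against EP300 KD1, a contrast added after seeing the data, 26 members were lower, ATF5 was higher and 10 were not called. Of all rows 59.7% were called (24.6% higher, 35.1% lower). The ER genes were lower in 14 of 17, with a median of -0.21, and the genes of synthesis and stress in 8 of 13, with a median of -0.09. DNAJB9 (-0.77 ± 0.06, adjusted p = 3e-09) and HYOU1 (-0.30 ± 0.03, adjusted p = 1.9e-08) were lower in EP300 KD2. The other members named as furthest apart in the difference were also lower, but by less than there. HERPUD1 gave -0.42 ± 0.03, ERN1 -0.42 ± 0.08, TRIB3 -0.29 ± 0.05 and ASNS -0.13 ± 0.05 (adjusted p = 3.1e-09, 1e-04, 4.3e-05 and 0.041). DDIT3 gave 0.03 ± 0.07 (adjusted p = 0.74), CHAC1 0.02 ± 0.12 (adjusted p = 0.88) and PSAT1 -0.01 ± 0.03 (adjusted p = 0.82), values that do not show the levels to be alike.

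Other genes of the same pathways were counted from further lists, over symbols with 1 accession row. Beside these counts, 32.6% of all rows tested were higher and 32.3% lower with the first hairpin, and 27.9% and 29.9% with the second. Of 17 tested among 18 other targets of ATF4, 12 fell and 3 rose with the first hairpin (median -0.39), and 16 fell and none rose with the second (median -0.95). NUPR1, a stress-induced chromatin protein, had means of 65.8 ± 2.31 CPM in NS1, 20.9 ± 1.40 in EP300 KD1, 66.7 ± 2.88 in NS2 and 15.2 ± 0.785 in EP300 KD2 (SD, n = 3). Its log2 changes were -1.65 ± 0.05 and -2.14 ± 0.05 (adjusted p = 5.7e-16 and 3.4e-17). The secreted glycoprotein STC2 changed by -0.92 ± 0.04 and -1.29 ± 0.04, and the alanine aminotransferase GPT2 by -0.40 ± 0.03 and -0.95 ± 0.03. Of 6 amino acid transporters tested among 8, 5 fell and 1 rose with the first hairpin and all 6 fell with the second. The cystine carrier SLC7A11 changed by -1.21 ± 0.03 and -1.39 ± 0.03, the leucine carrier SLC7A5 by -1.19 ± 0.03 and -0.94 ± 0.03 and the glutamine carrier SLC38A2 by -0.15 ± 0.02 and -0.63 ± 0.02. SLC3A2, the partner chain of SLC7A5 and SLC7A11, has 2 accession rows and is not among the 6. Its larger row, named after its values were seen, held 34538 counts and fell with both hairpins (-0.93 ± 0.04 and -0.80 ± 0.04).

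Other cytosolic tRNA synthetases changed less, with 7 of 11 lower with the first hairpin (median -0.07), and 5 lower and 2 higher with the second (median -0.03). MARS1 changed by -0.36 ± 0.03 and -0.55 ± 0.03, YARS1 by -0.48 ± 0.03 and -0.46 ± 0.03 and NARS1 by -0.34 ± 0.02 and -0.38 ± 0.02. SARS1, also named after its values were seen, has 2 accession rows and is not among the 11. The larger, with 99510 counts, fell with both (-0.31 ± 0.03 and -0.63 ± 0.03). Other ER folding genes gave 6 higher and 2 lower of 11 with the first hairpin (median 0.15), and 1 higher and 5 lower with the second (median -0.05). Here the disulfide isomerase P4HB rose by 0.41 ± 0.02 with the first and gave 0.01 ± 0.02 with the second (adjusted p = 0.79). The oxidase ERO1A rose by 0.50 ± 0.03 and gave 0.03 ± 0.03 (adjusted p = 0.38). HSPA13 rose by 0.25 ± 0.04 and fell by 0.71, and the first of these did not hold against both controls pooled (-0.02, adjusted p = 0.57). Other degradation genes were 8 higher and 1 lower of 10 with the first hairpin, and 2 and 2 with the second. Genes of ER translocation and traffic were 12 higher and 1 lower of 15 with the first, and 4 and 4 with the second. With the second hairpin neither of these last lists exceeded the share of all rows called in either direction.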

How the data were processed

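Poly(A) RNA was sequenced from 12 libraries with a stranded TruSeq kit, per the labels' protocols. Alignment by the authors used HISAT2 2.1.0 and hg38, and counting used featureCounts, per the submitters' processing notes. For the counter, the version, annotation and handling of strand and shared reads were not given in the sources used here. What the authors deposited are raw counts, 1 row per RefSeq accession. Symbols came from RefSeq and GENCODE tables, and 474 rows (0.313% of counts) had none. Symbols with several accession rows were left out of the counts of calls, as their reads may be split or dropped. The 4 such members had few counts, but in other lists SARS1 and SLC3A2 were well counted. Overlapping and antisense genes are uncertain for want of the strand setting.

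Rows were filtered with filterByExpr, scaled by TMM and fitted with edgeR 4.0.16 (quasi-likelihood, 1 coefficient per group, R 4.3.3), with Benjamini-Hochberg adjustment over 13424 rows. Standard errors came from the test statistic. The common biological coefficient of variation was 0.03. Within groups, all 12 pairs of libraries differed beyond sampling noise (chi-square divided by its degrees of freedom, 1.86 to 4.56). On simulated counts, the fit called 94% of rows changed 1.5-fold for the first hairpin and 98% for the second. At 1.25-fold it called 92% and 60%, a gap that was not seen at 1.5-fold. These rates describe the simulated rows, and whether they hold for the real rows was not tested. Alternatives used DESeq2 1.42.0, limma 3.58.1 (voom), other scaling and filters, pooled controls, a replicate block, and left-out libraries.

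Members and lists were chosen with earlier results of these data known. Values per library are given by rule for the 12 members with the largest changes and for transcription factors and sensors. From 4 of the other lists, the 3 genes with the smallest p were named, and the rest of these lists are given as counts.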

Additional observations from a re-analysis of the deposited data

Results flagged for a closer look

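The effect of the second EP300 hairpin differed from that of the first by a test of the difference itself (edgeR adjusted p under 0.05) for the following genes, where 50.8% of all rows passed the same test. Values are the second hairpin's log2 change minus that of the first.

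Among enzymes of amino acid supply the differences were -0.23 for PHGDH, -0.49 for PSAT1, -0.41 for PSPH, -0.82 for ASNS and -0.43 for PYCR1. Among tRNA synthetases they were -0.34 for AARS1, -0.32 for GARS1 and -0.50 for WARS1, and among stress effectors -0.36 for DDIT3, -0.19 for DDIT4 and -0.83 for TRIB3. The factors ATF4 and ATF5 gave -0.09 and 0.46. Sensors and their factors gave -0.54 for EIF2AK3, -0.84 for ERN1, -0.43 for XBP1, -0.34 for ATF6 and -0.31 for CREB3L2.

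ER chaperones gave -0.59 for HSPA5, -0.33 for HSP90B1, -0.29 for CANX, -0.56 for HYOU1, -0.28 for MANF, -1.01 for DNAJB9 and -0.73 for DNAJC3. The isomerases PDIA3, PDIA4 and PDIA6 gave -0.25, -0.43 and -0.32. The degradation genes gave -0.90 for HERPUD1, -0.52 for SEL1L, -0.35 for SYVN1 and -0.57 for EDEM1.

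Outside the members, EP300 itself gave -0.18. Other ATF4 targets gave -0.49 for NUPR1, -0.37 for STC2 and -0.55 for GPT2, and the transporters -0.18 for SLC7A11, 0.25 for SLC7A5 and -0.48 for SLC38A2. The tRNA synthetase MARS1 gave -0.19, and the ER folding genes -0.40 for P4HB, -0.96 for HSPA13 and -0.47 for ERO1A.

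Set directly against EP300 KD1, a contrast without the controls, EP300 KD2 was not called different for 8 of these genes, DDIT3 (0.03), ATF4 (-0.05), PSAT1 (-0.01), AARS1 (-0.08), CREB3L2 (-0.08), STC2 (-0.05), GPT2 (-0.05) and MARS1 (0.06), and SLC7A11 was higher (0.22).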

How the results depend on the processing

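The total number of members or rows called in each test stayed within 1.5 times its value under all alternatives run, but counts by direction did not. Members higher with the second hairpin went from 7 to 11 with both controls pooled, ER genes from 5 to 8, and members higher in the difference from 1 to 3 by library totals alone. Members higher with the first hairpin and lower with the second went from 9 to 5 with both controls pooled, and those higher with both from 5 to 10. The pooled contrasts share their control libraries. Without single libraries, members called ran from 31 to 35 for the first hairpin, 27 to 31 for the second, 26 to 29 for NS2 against NS1 and 31 to 32 for the difference, and rows from 8209 to 8765, 7255 to 7902, 2886 to 3943 and 6405 to 6711. Against both controls pooled, the sign turned for HERPUD1 (-0.14) and HSPA13 (-0.02) with the first hairpin, and for HSPA5 (0.14) and CREB3L2 (0.07) with the second. Of these only HERPUD1 was called in both fits, in opposite directions. Lost in the pooled fit were the calls of EIF2AK3 (0.00) with the first and of ERN1 (-0.05) and WARS1 (-0.01) with the second. EP300 KD2 against EP300 KD1, chosen after seeing the data, turned the sign of the difference for DDIT3 (0.03), SLC7A11 (0.22), MARS1 (0.06) and NARS1 (0.07). Of these, SLC7A11 was called in both contrasts, DDIT3 and MARS1 in the difference alone and NARS1 in the direct contrast alone. The direct contrast also ended the calls of ATF4 (-0.05), PSAT1 (-0.01), AARS1 (-0.08), CREB3L2 (-0.08), STC2 (-0.05) and GPT2 (-0.05), and YARS1 was called (0.28). This contrast leaves out the controls, which differed. By library totals alone the difference for EP300 was -0.11 (adjusted p = 0.063), and the cause was not tested. With the second hairpin, upper-quartile scaling and library totals alone called P4HB (0.06 and 0.08) and ERO1A (0.08 and 0.10) higher. Same-numbered libraries did not deviate together (r from -0.04 to 0.05 over 18 pairs), so numbers were not taken to pair them. With a replicate block, members called were 34, 30, 29 and 32 in the 4 tests. The fit with only the 2 groups compared was not run for the difference, which needs all 4. Calls rest on 3 libraries per group, and changes of 1.1-fold were recovered for only 30% and 20% of simulated rows with the first and second hairpin.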

Other observations

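Further lists of neighbouring pathways gave mixed directions. Over all rows tested, 32.6% were higher and 32.3% lower with the first hairpin, and 27.9% and 29.9% with the second. In the difference 21.6% were higher and 29.2% lower. The counts below are descriptions and were not tested against these shares. Of 11 cytosolic heat shock genes tested, 1 rose and 5 fell with the first hairpin (median log2 change -0.06), and 5 rose and 2 fell with the second (median 0.05). Their difference between hairpins was higher for 6 and lower for none, where 31 of 37 members were lower. Of 11 other eIF2 kinases and regulators, 4 rose and 5 fell with the first hairpin and 4 rose and 3 fell with the second. Other genes of serine, folate and proline metabolism gave 4 higher and 4 lower of 8 with the first hairpin and 3 and 3 with the second. The 3 tested genes of ATF6 processing and of the CREB3 family rose with the first hairpin, and 2 fell with the second.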
